A study of Mus musculus with 28 samples.

Results

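Tight junction genes, 9 in all, were followed across the tissues and cells of a mouse mammary cancer model: the claudins Cldn1, Cldn3, Cldn4 and Cldn7, occludin (Ocln), tricellulin (Marveld2), the junctional adhesion molecule F11r and the scaffold proteins Tjp1 and Tjp3. Every probe set of the array that lists 1 of these symbols and no other was taken, which gave 17 of 34958 such probe sets and 9 of 18194 genes. Cldn1 and Cldn3 had 4 probe sets each, Ocln and F11r had 2 each, and the other 5 genes had 1. Where probe sets of a gene differed in signal, the brightest on average over 26 tissue arrays was used.

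RNA was hybridized to Affymetrix arrays, and all values are log2 intensities. The groups were lung metastases (LungMets, 9 arrays), primary tumors (PT, 11 arrays), normal lung (NL, 3 arrays) and normal mammary gland (NMG, 3 arrays), with JygMC(A) cells grown as 3D spheres or as a monolayer (1 array each). PT and LungMets came from female Balb/c athymic nude mice of 8 weeks that received 50000 JygMC(A) mouse mammary carcinoma cells in the 4th mammary gland, with PT taken at day 30 and LungMets at day 50 by the labels. The sources differ on the injection, which is subcutaneous in the labels and into the fat pad in the methods, and on the day of tumor removal, for which the methods give a range that ends at day 30. NL and NMG came from healthy nude mice that received no cells. The methods describe 3 such mice of 6 to 8 weeks for both tissues, so that NL and NMG may be of the same animals, while the fit takes their arrays as independent. The injected cells carried a GFP and luciferase reporter, all tumors descend from this single cell line, and athymic hosts lack mature T cells. By the methods, primary tumors were removed during the experiment, so mice with LungMets would have lost theirs. The labels do not name the mouse behind an array, and the methods describe 1 or 2 embedded fragments from each of 8 mice, so that arrays may share an animal and p-values measure only the spread between arrays. The tissue was not sorted, and fewer cells of a type and less RNA per cell cannot be told apart.

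Tight junctions seal the space between neighboring epithelial or endothelial cells near their apical side. Claudins form the paracellular barrier and its pores, occludin and tricellulin are MARVEL-domain membrane proteins of the strands and of the corners where cells meet, F11r is an immunoglobulin-like adhesion protein, and Tjp1 (ZO-1) and Tjp3 (ZO-3) link the strands to the actin skeleton. In the mammary gland tight junctions join luminal cells, and several of these genes are repressed when epithelial cells take on a mesenchymal state.

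Arrays that stood apart were looked for before the comparisons. PT replicate 5 correlated best with LungMets replicate 5 (r = 0.994 over all 45101 probe sets, the highest of all pairs), and its mean over 17 lung epithelium genes was 10.12, against a median of 5.34 over all PT arrays. LungMets replicate 9 correlated best with PT replicate 2 (r = 0.989), and its mean over the same lung genes was 6.36, against a median of 10.56 over all LungMets arrays. Both arrays thus go against their labels, so the LungMets against PT values of the members are given with and without them. Without them no member's call changed in PT against NMG, LungMets against NL or PT against NL. They are written as the library labelled PT replicate 5 and the library labelled LungMets replicate 9. Labels name 4 dates, of unstated meaning: PT and LungMets share 2 of them, while NL and NMG each lie on a date of their own, so date and tissue cannot be told apart in comparisons with normal tissue. Array medians lay from 5.00 to 5.18, and Epcam and Cdh1, epithelial markers, were measured at 10.02 to 10.96 and at 8.55 to 9.93 in the NMG arrays. Lung genes were also raised in PT replicate 7 (Sftpc 9.48, Ager 7.94) and PT replicate 3 (Sftpc 7.92), against PT medians of 4.77 for Sftpc and 5.43 for Ager. Both arrays were kept. NMG replicate 1 had more of the lung genes Sftpc (10.55, against 5.93 and 4.98 in replicates 2 and 3) and Ager (8.09, against 6.26 and 6.07). It correlated best with NMG replicate 2 (r = 0.993) and was kept. It was the highest NMG array for every member except Cldn4, and also for Epcam (10.96) and Cdh1 (9.93). The part of lung RNA in these values was not tested.

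Promoters were searched because repressors such as Snai1 and Zeb1 bind the E-box CAGGTG in the Cdh1 promoter. Those of 5 members with clear group differences or wide ranges in PT are shown, and others of this kind, such as Tjp1, are not. Each run gives the 250 bases before a RefSeq start site (GRCm38.p6), 5′ to 3′ on the strand of the gene, and capitals mark CAGGTG or its reverse complement CACCTG. The window of Cldn1 lies at chr16:26371840-26372089 (minus strand), Cldn4 at chr5:134946935-134947184 (minus) and Cldn3 at chr5:134985964-134986213 (plus). That of Cldn7 lies at chr11:69965171-69965420 (plus, the second of 2 start sites by coordinate). That of Ocln lies at chr13:100552499-100552748 (minus, the first of 2 start sites by coordinate). For Cldn7 and Ocln these are the start sites farther downstream on the strand of the gene. Their other windows, not shown, held no CAGGTG or CACCTG.
Cldn1: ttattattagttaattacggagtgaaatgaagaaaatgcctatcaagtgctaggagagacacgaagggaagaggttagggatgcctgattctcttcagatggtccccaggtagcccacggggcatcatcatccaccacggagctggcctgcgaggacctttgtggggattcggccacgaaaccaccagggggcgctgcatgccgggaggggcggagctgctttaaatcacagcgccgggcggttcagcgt
Cldn4: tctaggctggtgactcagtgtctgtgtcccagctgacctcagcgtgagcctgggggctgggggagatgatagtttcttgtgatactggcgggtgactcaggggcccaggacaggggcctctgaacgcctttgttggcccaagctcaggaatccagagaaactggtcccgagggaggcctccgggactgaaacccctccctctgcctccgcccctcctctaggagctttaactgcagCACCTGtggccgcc
Cldn3: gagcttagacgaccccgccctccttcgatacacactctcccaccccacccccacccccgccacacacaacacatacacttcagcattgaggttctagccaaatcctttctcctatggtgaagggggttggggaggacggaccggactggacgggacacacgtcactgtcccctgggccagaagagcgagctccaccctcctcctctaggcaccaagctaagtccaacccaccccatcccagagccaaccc
Cldn7: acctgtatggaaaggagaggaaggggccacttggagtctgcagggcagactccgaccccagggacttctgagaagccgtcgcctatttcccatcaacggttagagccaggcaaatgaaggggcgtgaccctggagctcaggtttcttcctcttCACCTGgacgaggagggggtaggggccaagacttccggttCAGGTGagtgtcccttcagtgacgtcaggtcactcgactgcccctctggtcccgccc
Ocln: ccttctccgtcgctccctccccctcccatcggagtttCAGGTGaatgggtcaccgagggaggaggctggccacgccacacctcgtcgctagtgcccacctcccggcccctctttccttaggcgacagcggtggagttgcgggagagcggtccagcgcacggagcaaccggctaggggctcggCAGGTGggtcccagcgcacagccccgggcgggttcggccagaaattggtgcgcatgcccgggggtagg

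CAGGTG or CACCTG occurred in 6 of the 13 windows of the 9 genes (46.2%), against 17.2% of all 32851 RefSeq windows of this length. Cldn4 had 1 match starting 14 bases before the start site, Cldn7 had 2 at 97 and 57 bases, Ocln had 2 at 213 and 68 bases, F11r had 1 at 122 bases, and Tjp3 had 1 in each of 2 windows. Cldn1, Cldn3, Tjp1 and Marveld2 had none in these 250 bases. With the first 50 transcribed bases included, 10 of 13 windows (76.9%) held a match, against 20.2% of all. Of the other motifs searched on both strands, GGGCGG was in 10 of 13 windows (76.9%, against 32.7% of all), TATAAA in 2 (15.4%, against 12.4%) and AACCGGTT in 0 (against 0.116%). Both TATAAA windows are those of Marveld2, whose windows overlap, as do the pair for Ocln. No searched motif contains another, and a match is a description of sequence only.

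The comparison of PT with NMG asks which genes differ between the tumor and the normal gland. Cldn1 and Cldn4, both barrier claudins, were lower in every PT array than in every NMG array, each by more than 4-fold. For Cldn1 this holds only for the brightest of its 4 probe sets. No member was called higher, and Cldn3, Cldn7, Ocln, Marveld2, F11r, Tjp1 and Tjp3 were not called. A gene is called here at a limma adjusted p under 0.05. Of all genes tested, 26.7% were called higher and 21% lower in PT, and the members' counts of 0 and 2 of 9 are to be read against these shares. By unadjusted limma p under 0.05 the counts were also 0 and 2, by an analysis of variance without moderation the same 2 members were called, and so they were without the libraries that stood apart.

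The Cldn1 gene lies at chr16:26356645-26371839 (GRCm38.p6) and Cldn4 at chr5:134945123-134946934, with Cldn3 on the same chromosome at chr5:134986214-134987476. Cldn1 values ran from 3.32 over a median of 3.51 to 4.48 in PT, against 6.11, 5.91 and 5.55 in NMG. Every PT array lay below the lowest NMG array, and PT replicate 2 and the library labelled PT replicate 5 were the highest in PT. The means were 3.71 ± 0.45 in PT (SD, n = 11) and 5.86 ± 0.28 in NMG (SD, n = 3), a log2 difference of -2.14 (SE 0.24, limma adjusted p = 7.27e-08) or 4.42-fold lower. All PT values of Cldn1 lay under the median of every array.

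Cldn4 values ran from 5.00 over 5.18 to 5.82 in PT, against 7.28, 7.36 and 7.60 in NMG. The PT arrays differed little from each other and all lay under the NMG arrays. The log2 difference was -2.14 (SE 0.20, limma adjusted p = 4.78e-09). Over all genes, 16% had every PT array below every NMG array and 18.3% had every PT array above.

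Cldn3, and Cldn7 at chr11:69964779-69967886, had wide ranges in PT. Cldn3 ran from 6.97 over 9.18 to 11.15 in PT, against 9.25, 9.22 and 7.99 in NMG, with a log2 difference of 0.31 (95% CI -1.13 to 1.75, limma adjusted p = 0.743). Cldn7 ran from 5.21 over 9.33 to 11.75 in PT, against 8.91, 8.80 and 7.36 in NMG, with a log2 difference of 0.77 (95% CI -1.09 to 2.64, adjusted p = 0.508). For both genes PT arrays lay above and below all NMG arrays: 5 of 11 above and 3 below for Cldn3, and 7 above and 1 below for Cldn7.

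The remaining membrane proteins are encoded at chr13:100496504-100552718 (Ocln), chr13:100595957-100616971 (Marveld2) and chr1:171437561-171464593 (F11r). Ocln, a barrier protein of the strands, ran from 4.25 over 6.06 to 8.09 in PT, against 6.43, 6.29 and 5.63 in NMG (log2 difference -0.18, 95% CI -1.62 to 1.26). Marveld2 ran from 4.15 over 6.19 to 7.54 in PT, against 6.24, 5.93 and 5.08 in NMG (0.36, 95% CI -0.69 to 1.41). F11r ran from 7.66 over 8.97 to 9.63 in PT, against 9.23, 9.01 and 8.73 in NMG (-0.19, 95% CI -0.83 to 0.45). None of these 3 differences is larger than the spread among PT arrays, and limma adjusted p-values lay from 0.590 to 0.853.

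The scaffold genes lie at chr7:65296165-65527850 (Tjp1) and chr10:81273188-81291581 (Tjp3). Tjp1 ran from 9.08 over 9.43 to 10.15 in PT, against 9.46, 9.21 and 9.27 in NMG (log2 difference 0.16, 95% CI -0.26 to 0.58, limma adjusted p = 0.556). Its highest PT value was that of the library labelled PT replicate 5, and the other 10 arrays ended at 9.55. Tjp3 ran from 3.82 over 5.81 to 7.48 in PT, against 7.05, 6.82 and 5.42 in NMG (-0.83, 95% CI -2.11 to 0.45, adjusted p = 0.283).

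**Figure D1:**
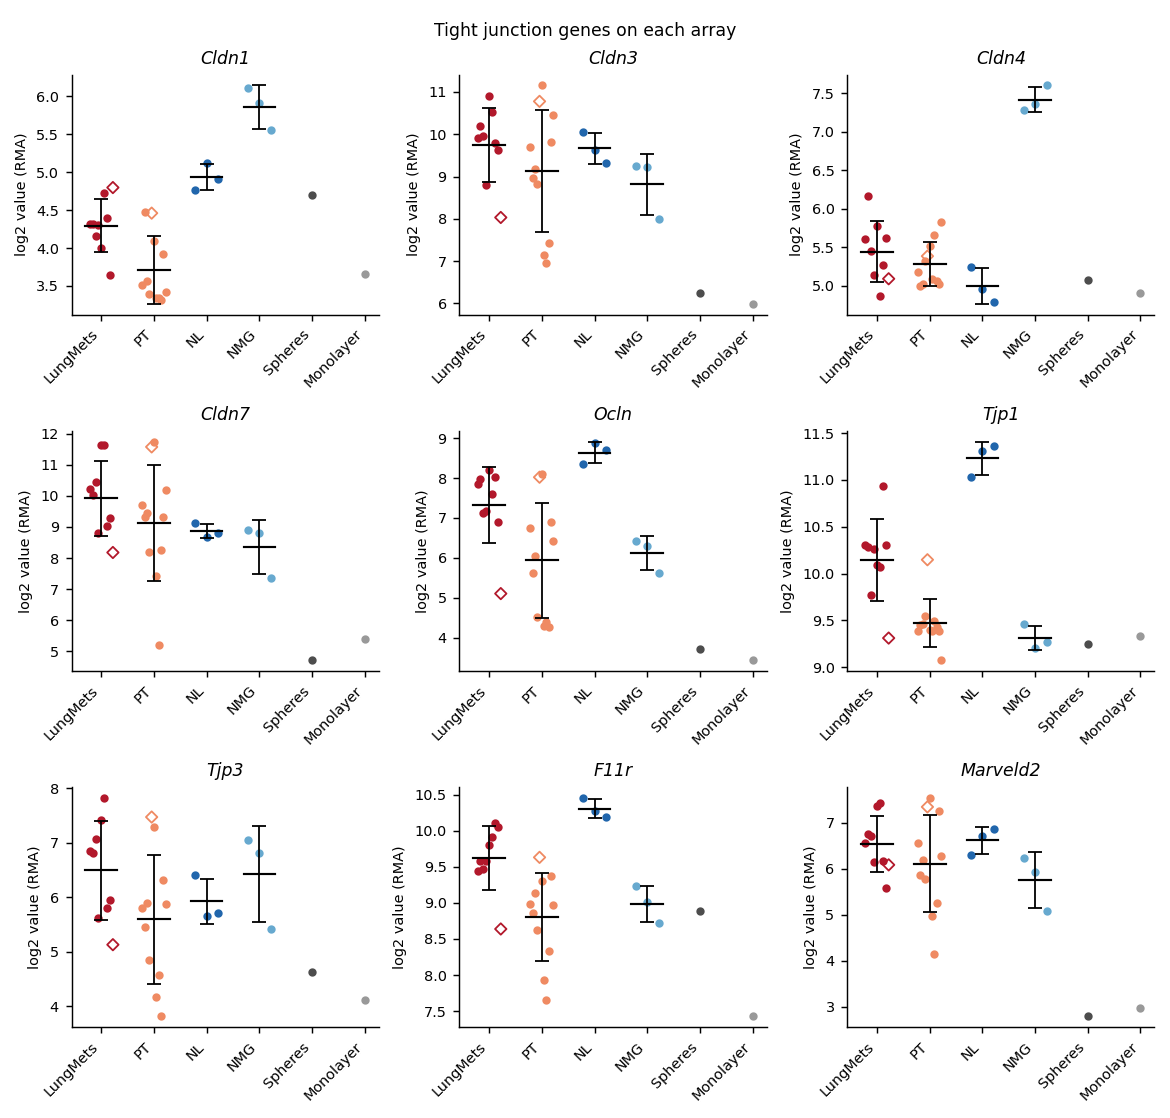
Log2 value (vertical axis) of each of the 9 genes on every array, by group (horizontal axis), with the mean and SD of the groups of 3 or more as black lines. Open diamonds mark the libraries labelled PT replicate 5 and LungMets replicate 9. For Cldn1 and Cldn4 all PT arrays lie below the NMG arrays, while Cldn7 spreads from 5.21 to 11.75 in PT.

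Several cell type lists moved with this comparison. All 10 adipocyte genes measured were called lower in PT, and the sum of their intensities was 10.6 to 11.8 in PT and 15.5 to 15.8 in NMG (log2). Of the luminal mammary genes 7 of 11 were lower, of the basal genes 6 of 8, of the endothelial genes 13 of 18 (1 higher) and of the leukocyte genes 7 of 10. The summed endothelial level was 10.04 to 12.59 in PT and 12.15 to 12.39 in NMG, and the leukocyte level was 11.65 to 13.41 in PT and 14.52 to 14.57 in NMG. The summed luminal level was 9.63 to 13.38 in PT and 12.94 to 13.15 in NMG. Of the general epithelial genes 1 of 12 was lower (Krt18) and 1 higher (Rab25), with sums of 10.41 to 15.14 in PT and 13.20 to 13.46 in NMG. The part of these cell types in the lower Cldn1 and Cldn4 values was not tested.

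Of 16 other claudins measured, 2 were called higher and 6 lower in PT, with a median log2 difference of 0.04, against 0.09 over all genes. Cldn2, a pore-forming claudin, averaged 6.05 in PT and 4.03 in NMG (log2 difference 2.02, limma adjusted p = 0.000134), and Cldn12 averaged 9.78 in PT and 7.82 in NMG (1.96, adjusted p = 1.16e-11). All PT arrays lay above all NMG arrays for both genes. The largest falls were those of Cldn5, the claudin of endothelium and also on the endothelial list (-2.55, adjusted p = 0.00487), and Cldn22 (-1.73, adjusted p = 1.33e-09).

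Among 15 other junction membrane proteins, 1 was higher and 6 were lower, led by Nectin4 (0.84) and Ildr2, an angulin of tricellular contacts (-2.07). Among 23 scaffold and polarity proteins, 9 were higher and 3 lower, led by Pard6b (1.80) and Arhgef18 (-1.96). The call of Nectin4 rests on the libraries that stood apart, since its adjusted p was 0.0430 with all arrays and 0.0596 without them. Of 9 activators of epithelial junction genes, Ovol2 alone was called (0.79 higher), and of 6 repressors Snai1 was higher (0.65) and Zeb2 lower (-2.80). None of 5 proteases and regulators that cut or hold claudins and occludin was called by limma, and 0 had an unadjusted p under 0.05.

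The comparison of LungMets with PT asks which genes differ between metastases and primary tumors, which the labels do not match by mouse. Cldn1, F11r and Tjp1 were called higher in LungMets, each by less than 2-fold, and no member was called lower (5 higher and 0 lower by unadjusted p under 0.05). In all 9 genes the LungMets mean was above the PT mean, and in all 9 the arrays of the groups overlapped. Of all genes, 9.02% were called higher and 6.14% lower, and 0.066% had every LungMets array above and 0.044% every one below all PT arrays. The median log2 difference was 0.68 over the 9 members and -0.02 over all genes.

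F11r ran from 8.64 over 9.59 to 10.11 in LungMets, against 7.66, 8.97 and 9.63 in PT as lowest, median and highest. Only 4 of 9 LungMets arrays lay above all PT arrays, and the lowest LungMets value was that of the library labelled LungMets replicate 9. The means were 9.62 ± 0.44 in LungMets (SD, n = 9) and 8.80 ± 0.61 in PT (SD, n = 11), a log2 difference of 0.82 (SE 0.21, limma adjusted p = 0.0104) or 1.77-fold.

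Tjp1 ran from 9.31 over 10.27 to 10.93 in LungMets, against 9.08, 9.43 and 10.15 in PT. The lowest LungMets value and the highest PT value were those of the 2 libraries that stood apart. The log2 difference was 0.68 (SE 0.14, limma adjusted p = 0.00183), and 0.85 without these libraries (adjusted p = 2.10e-06).

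Cldn1 ran from 3.65 over 4.31 to 4.80 in LungMets, against 3.32, 3.51 and 4.48 in PT. LungMets replicate 6 and the library labelled LungMets replicate 9 lay above all PT arrays. The log2 difference was 0.58 (SE 0.16, limma adjusted p = 0.0177), and with the mean of the 4 probe sets it was 0.19 and was not called (adjusted p = 0.123). All LungMets and PT values of Cldn1 lay under the median of every array, so both groups are in the low range of signal.

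Ocln ran from 5.10 over 7.61 to 8.20 in LungMets, against 4.25, 6.06 and 8.09 in PT. Its difference was the largest of the members at 1.39 (SE 0.48) and was not called (limma adjusted p = 0.0521). The library labelled LungMets replicate 9 was the lowest in LungMets, well under the next at 6.89, and the library labelled PT replicate 5 was next to the highest in PT. Without these 2 libraries the difference was 1.88 (adjusted p = 0.00245).

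The other members had intervals that held 0 or came close to it. The log2 difference was 0.62 for Cldn3 (95% CI -0.37 to 1.61), 0.79 for Cldn7 (-0.49 to 2.08), 0.42 for Marveld2 (-0.30 to 1.15), 0.16 for Cldn4 (-0.12 to 0.45) and 0.90 for Tjp3 (0.02 to 1.78, limma adjusted p = 0.168). Without the 2 libraries that stood apart, 5 members were called higher, while Cldn3 (1.00), Cldn7 (1.26), Marveld2 (0.60) and Cldn4 (0.22) were not called. The 5 were Cldn1 (0.59, adjusted p = 0.00776), F11r (1.03, adjusted p = 0.0004), Tjp3 (1.26, adjusted p = 0.0286), Ocln and Tjp1. The share of all genes called without these libraries was not worked out, so the larger count is not a result about the members.

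Within the first label date (4 LungMets and 4 PT arrays) the log2 difference was 0.69 for Tjp1, 0.62 for F11r, 0.54 for Cldn1 and 1.80 for Ocln, with Tjp1, F11r and Ocln called. Within the second (5 LungMets and 7 PT arrays) it was 0.67 for Tjp1, 0.96 for F11r, 0.61 for Cldn1 and 1.11 for Ocln, with 0 of 9 members called by limma and both libraries that stood apart among these arrays. Without them the second date gave 0.98 for Tjp1 (adjusted p = 0.00687) and 1.37 for F11r (adjusted p = 0.0349), both called. The shares of all genes called within a single date were not worked out. The difference between the dates was not called by limma for any member (0 of 9 by unadjusted p under 0.05), and over all genes 0% were called.

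**Figure D2:**
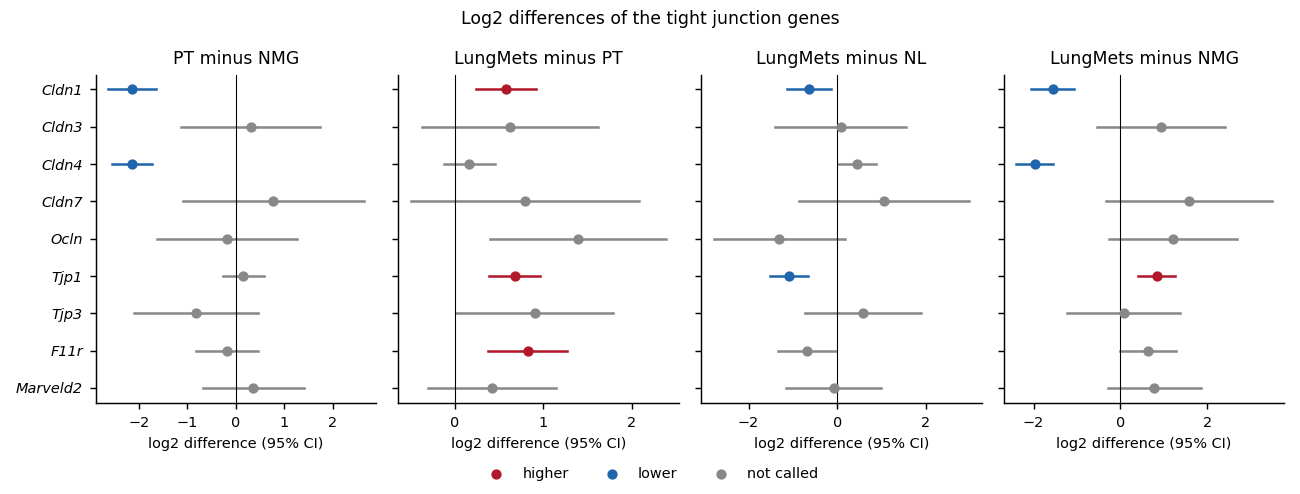
Log2 difference (horizontal axes) with its 95% confidence interval for each of the 9 genes in 4 comparisons, from the limma fit over 26 tissue arrays, with the called genes in color. Cldn1 and Cldn4 lie left of 0 in both comparisons with NMG, and all 9 points lie right of 0 for LungMets minus PT.

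Lung tissue markers moved with LungMets against PT. All 17 lung epithelium genes measured were called higher in LungMets and 15 of 18 endothelial genes were higher. Sftpc, a surfactant protein gene of alveolar cells, had a median of 13.48 in LungMets and 4.77 in PT. The sum of the lung epithelium genes was 11.20 to 16.19 in LungMets and 9.81 to 15.42 in PT, where the highest PT value was that of the library labelled PT replicate 5. NL itself had more Ocln, Tjp1 and F11r than PT had, and the part of lung cells in the higher LungMets values was not tested. Of the epithelial genes 1 of 12 was higher (Krt7).

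Of 16 other claudins 3 were called higher and 0 lower (4 and 1 by unadjusted p under 0.05), led by Cldn18, the claudin of alveolar epithelium (8.77 in LungMets and 4.42 in PT, log2 difference 4.35, limma adjusted p = 0.000155), and Cldn5 (2.30, adjusted p = 0.00237). Without the libraries that stood apart these differences were 5.42 for Cldn18 and 2.75 for Cldn5. Both genes are also on the marker lists, Cldn18 for lung epithelium and Cldn5 for endothelium. Other junction membrane proteins had 6 of 15 higher, led by Ildr2 (1.98), and scaffold and polarity proteins had 3 higher and 3 lower of 23, led by Magi3 (0.87) and Mpdz (-0.43). No activator was called by limma (0 of 9 by unadjusted p under 0.05), and of the repressors Twist2 was lower (-0.73).

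Set against NL, the normal lung of healthy mice that received no cells, LungMets had less Cldn1 and Tjp1. The 9 LungMets arrays lay below all NL arrays also for Ocln and F11r, which were not called. By limma no member was called higher (1 by unadjusted p under 0.05), while 23.8% of all genes were called higher and 22.4% lower, and 16.7% had every LungMets array above and 17.4% every one below all NL arrays.

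Tjp1 had 11.03, 11.31 and 11.36 in NL, above the LungMets range given before. The log2 difference of LungMets minus NL was -1.08 (SE 0.21, limma adjusted p = 0.000142), or 2.12-fold lower. Cldn1 had 4.77, 5.12 and 4.92 in NL, so that 8 of 9 LungMets arrays lay below all of them. The log2 difference was -0.64 (SE 0.24, adjusted p = 0.0346), and the call was lost when LungMets replicate 5 or 8 or any one NL array was left out, with differences from -0.72 to -0.55 over all leave-outs. It was also lost with the mean of the 4 probe sets (-0.16, adjusted p = 0.315).

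Ocln had 8.34, 8.88 and 8.70 in NL, and F11r had 10.46, 10.27 and 10.19. The differences were -1.31 for Ocln (95% CI -2.79 to 0.17, limma adjusted p = 0.138) and -0.69 for F11r (-1.34 to -0.03, adjusted p = 0.0799). The second Ocln probe set, 1440220_at, was called (-1.72, adjusted p = 0.00535).

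The other 5 members were close to NL or above it with wide intervals. Cldn4 had 5.25, 4.96 and 4.79 in NL (log2 difference 0.44, limma adjusted p = 0.0794) and Cldn7 had 9.13, 8.68 and 8.79 (1.06, adjusted p = 0.368). Cldn3, Tjp3 and Marveld2 had differences of 0.07, 0.57 and -0.08. In NL, lung epithelium genes summed to 17.04 to 17.11, above all LungMets arrays, and 9 of 17 were lower in LungMets, as were 17 of 18 endothelial genes. The part of these cells in the lower Tjp1 and Cldn1 values was not tested.

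Other claudins split, with 4 of 16 higher in LungMets than in NL and 5 lower. Cldn2 (1.98) and Cldn12 (0.90) were the largest rises, and Cldn5 (-3.41) and Cldn18 (-2.91) the largest falls. Of other membrane proteins 2 were higher, led by Nectin4 (1.34), and 8 lower, led by Jam2 (-1.97), and of scaffold and polarity proteins 1 was higher (Ybx3, 1.46) and 12 of 23 lower, led by Pard6g (-2.20). Grhl1 was the 1 activator called (1.83 higher), and among repressors Twist1 was higher (2.22) and Zeb2 had the largest fall (-2.28).

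Against NMG, LungMets had less Cldn1 and Cldn4 and more Tjp1, and the other 6 members were not called. Of all genes, 23.1% were called higher and 17.9% lower, and 15.3% had every LungMets array above and 14.4% every one below all NMG arrays. All 9 LungMets arrays lay below all NMG arrays for Cldn1 (log2 difference -1.56, SE 0.24, limma adjusted p = 1.63e-05) and for Cldn4 (-1.97, SE 0.21, adjusted p = 4.00e-08), with Cldn4 at 4.87, 5.45 and 6.16 in LungMets as lowest, median and highest. Tjp1 was 0.83 higher (SE 0.21, adjusted p = 0.00246), with 8 of 9 arrays above all NMG arrays. F11r was 0.63 higher and was not called (adjusted p = 0.112), but was called without the library labelled LungMets replicate 9 (0.76, adjusted p = 0.0421).

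The lists gave 3 of 16 other claudins higher and 3 lower in LungMets than in NMG, led by Cldn18 (4.61) and Cldn2 (2.31) and by Cldn22 (-1.85) and Cldn11 (-0.75). Nectin3 (1.72) and Jam3 (-1.92) led the other membrane proteins, Pard6b (2.54) and Arhgef18 (-1.51) the scaffold and polarity proteins. Ovol2 was the 1 activator called (0.87) and Zeb2 had the larger fall of 2 repressors called lower (-2.12). Of the cell type lists, luminal mammary genes were lower in LungMets in 6 of 11, basal genes in 5 of 8, leukocyte genes in 6 of 10 and adipocyte genes in 10 of 10, while lung epithelium genes were higher in 13 of 17. The summed luminal level was 10.96 to 13.43 in LungMets and 12.94 to 13.15 in NMG, the basal level 9.60 to 11.58 in LungMets and 11.21 to 11.89 in NMG, and the leukocyte level 13.14 to 13.90 in LungMets and 14.52 to 14.57 in NMG. Their part in the Cldn1, Cldn4 and Tjp1 values was not tested.

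The order of group means differed between members. For Cldn1 it ran from NMG over NL and LungMets to PT, and each neighbor in this order differed (limma adjusted p from 0.0177 to 0.0346). Cldn4 was highest in NMG, followed by LungMets, PT and NL, and below NMG no neighbors in this order were called different. LungMets minus NL for Cldn4 was 0.44 (95% CI 0.02 to 0.87), not called with all arrays and called without LungMets replicate 6 (0.52, adjusted p = 0.0344) or with array weights (0.65, adjusted p = 0.00191). Tjp1 was highest in NL, then LungMets, then PT and NMG, of which only the last 2 did not differ. Ocln and F11r had the order NL, LungMets, NMG, PT, in which no neighbors were called different, although PT minus NL was -2.70 for Ocln (adjusted p = 0.00199) and -1.51 for F11r (adjusted p = 0.0002). For Cldn3, Cldn7, Tjp3 and Marveld2 no neighbors were called different.

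Against NL, PT had less Cldn1, Ocln, Tjp1 and F11r, with all 11 PT arrays below all NL arrays for each of these 4 genes, and no member was called higher (0 by unadjusted limma p under 0.05). Of all genes, 29.1% were called higher and 25.3% lower in PT than in NL, and 20.1% had every PT array above and 19.3% every one below. Lung epithelium genes were lower in PT in 17 of 17 and endothelial genes in 17 of 18 (summed endothelial level 10.04 to 12.59 in PT and 14.94 to 15.03 in NL), and their part in these values was not tested.

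Of the normal tissues alone, NL had more Ocln (2.52), Tjp1 (1.92) and F11r (1.32) and less Cldn1 (-0.92) and Cldn4 (-2.42) than NMG, while 14.3% of all genes were called higher and 14.5% lower, and 23.6% had every NL array above and 24% every one below all NMG arrays. Lung epithelium genes were higher in NL in 17 of 17, endothelial genes higher in 17 of 18, luminal mammary genes lower in 6 of 11 and adipocyte genes lower in 9 of 10, and their part in these values was not tested.

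The PT arrays differed most from each other in Cldn3, Cldn7, Ocln, Tjp3, F11r and Marveld2, and these 6 genes went up and down together. This grouping was made after the values were seen. PT replicate 6 and the library labelled PT replicate 5 were the 2 highest arrays for Cldn3, Cldn7, Ocln, Tjp3 and Marveld2. PT replicate 6 was the higher of them in all of these except Tjp3. PT replicates 7, 8 and 9 were the 3 lowest for Cldn3, F11r, Ocln, Tjp3 and Marveld2. Cldn7 was 5.21 in PT replicate 8, 7.43 in replicate 7 and 8.19 in replicate 4.

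Over the 11 PT arrays, 16 of 36 pairs of members had a correlation with adjusted p under 0.05 by 100000 permutations, and 15 of them were the pairs among these 6 genes. As the 6 genes were grouped from these same values, this split is no separate evidence for the grouping. The share of all gene pairs that would pass was not worked out. The permutations take arrays as independent though some may share a mouse, so the counts are a description only. Pearson r was 0.837 to 0.975 in these 15 pairs (Spearman rho 0.80 to 0.973), 0.833 to 0.948 without the 2 arrays farthest from the median, and 0.794 to 0.968 without the library labelled PT replicate 5. Within the 7 PT arrays of the second label date it was 0.836 to 0.991, with all 15 pairs passing by r but 4 of 15 by rho (largest adjusted p = 0.114), and the first date holds too few arrays. The 21 pairs with Cldn1, Cldn4 or Tjp1 had r from -0.152 to 0.712, and 1 of them passed (Cldn1 with Tjp3, adjusted p = 0.0365). By rho 21 of the 36 pairs passed, among them Cldn1 with each of the 6 genes (rho 0.682 to 0.791, permutation adjusted p 0.0129 to 0.0438). Without the 2 arrays farthest from the median, r of Cldn1 with these genes was 0.692 to 0.875. Without the library labelled PT replicate 5, Cldn1 passed by rho with Ocln, Tjp3, F11r and Marveld2 only. Cldn1 thus went partly with the 6 genes, unlike Cldn4 and Tjp1. Over the 9 LungMets arrays r among the 6 genes was 0.114 to 0.982, with 6 of 15 pairs passing, and -0.421 to 0.963 without the 2 arrays farthest from the median.

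The epithelial markers varied in PT too. Epcam ran from 7.01 to 13.36 and Cdh1 from 6.18 to 11.35 in PT, with PT replicate 8 the lowest of both. Vim, an intermediate filament of mesenchymal cells, was 10.54 in PT replicate 6 and 12.80 in PT replicates 7 and 8. The sum of 12 epithelial genes ran from 10.41 to 15.14 in PT, and the part that the number of epithelial cells has in the spread was not tested.

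**Figure D3:**
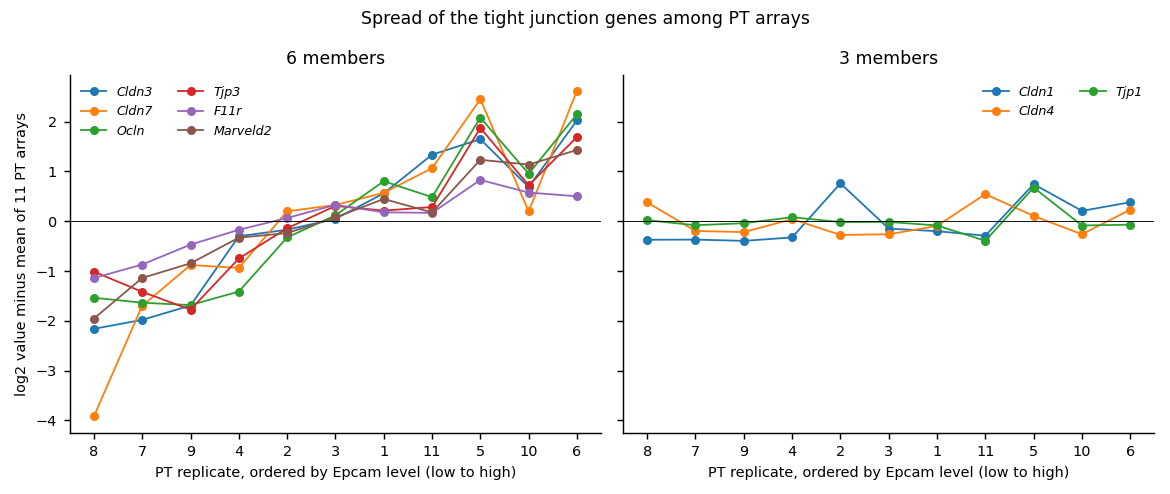
Log2 value minus the mean of the 11 PT arrays (vertical axis) for each PT array, ordered from low to high Epcam (horizontal axis). The left panel shows the 6 genes with wide spread, from PT replicate 8 at the low end to PT replicate 6 at the high end, and the right panel shows Cldn1, Cldn4 and Tjp1, which span 1.16, 0.82 and 1.07 log2 units.

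**Figure D4:**
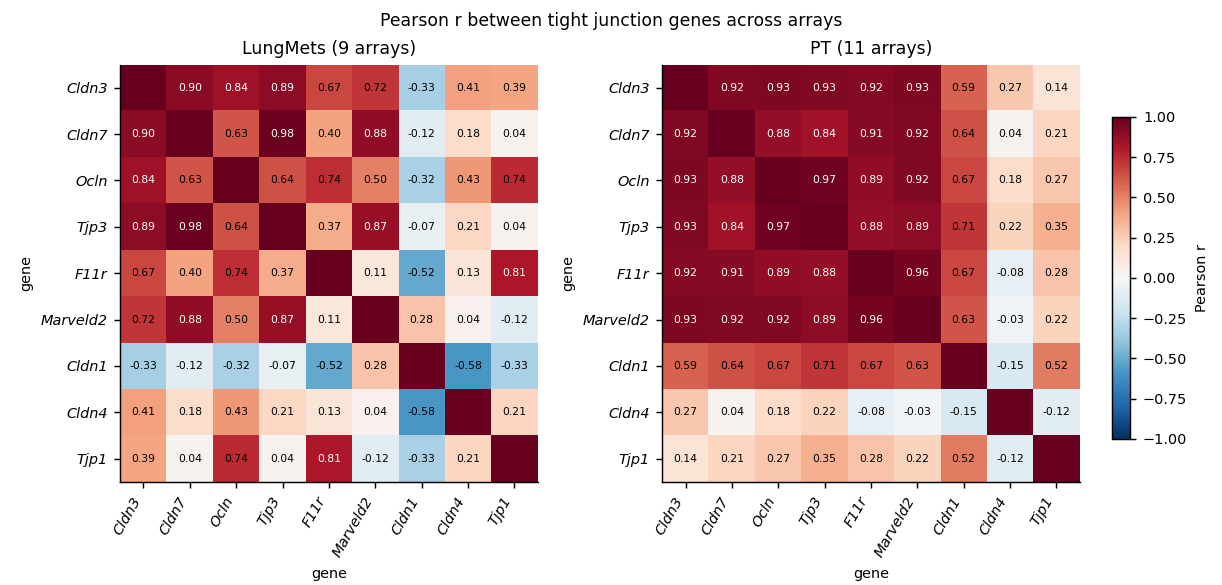
Pearson r between the members across the 9 LungMets arrays (left) and the 11 PT arrays (right), with genes on both axes. The 15 pairs among the first 6 genes lie from 0.837 to 0.975 in PT and from 0.114 to 0.982 in LungMets.

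By the highest Pearson r over the 26 tissue arrays, Cldn3 was most like Ripk4 (r = 0.941), Spint1 and Spint2, and Cldn7 was most like Ap1m2 (0.942), Grhl2 and Elf5. Marveld2 was most like Pof1b (0.951), Cracdl and the desmosomal Dsp, Ocln was most like Pgap4 (0.947), Mcf2l and Cyb561, and F11r was most like Wwc1 (0.961), Atp8a1 and Mcf2l. Tjp3 was most like Rnpep (0.924), St14 and Rnf43. Tjp1 was most like Bmpr2 (0.979), Popdc3 and Fam162b, Cldn1 most like Dennd2d (0.897), Acss2 and Lars2, and Cldn4 most like Mc2r (0.922), 4931408D14Rik and A530016L24Rik. Over the 11 PT arrays alone, r with the same genes was 0.54, 0.624 and 0.49 for Cldn1. It was 0.703, -0.0675 and 0.525 for Cldn4, and 0.887 to 0.982 for the other members. These arrays share tissues and labels, and the values are a description.

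The JygMC(A) cells in culture were measured once as spheres and once as a monolayer, so there is no test. Cldn3 was 6.25 in spheres and 5.99 in the monolayer, Ocln was 3.71 and 3.44, and Marveld2 was 2.80 and 2.96. All 11 PT and all 9 LungMets arrays lay above both values for these 3 genes. For Ocln this held for 1448873_at only. The second Ocln probe set, 1440220_at, was 5.13 in spheres and 4.04 in the monolayer. By this probe set PT replicates 2, 4, 7, 8 and 9 and the library labelled LungMets replicate 9 lay below the spheres value. The other PT and LungMets arrays lay above both of its values. All 9 LungMets arrays lay above both cell line values also for Cldn7 and Tjp3. Over all genes, 9.26% had every PT array and 12.4% every LungMets array above both cell line arrays. Cldn7 was 4.72 in spheres and 5.40 in the monolayer, with 10 of 11 PT arrays above both and PT replicate 8 at 5.21 between them. Epcam was 3.98 in spheres and 5.62 in the monolayer, and Cdh1 was 3.81 and 4.01, so that the epithelial markers too were lower in culture than in every PT array.

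Tjp1 was 9.24 in spheres and 9.33 in the monolayer, within the PT range, and Cldn4 was 5.07 and 4.91, close to the lowest PT array at 5.00. Between the cultures, F11r was 8.89 in spheres and 7.43 in the monolayer (1.46 higher) and Cldn1 was 4.70 and 3.66 (1.03 higher). The second F11r probe set, 1436374_x_at, was 6.44 in spheres and 6.34 in the monolayer. The F11r rise thus rests on the brighter of its 2 probe sets, with 1 array per culture. Over all genes, 2.91% were higher in spheres by more than 1 log2 unit and 5.21% lower, and 2 of 9 members passed this line upward. Tjp3 was 4.63 in spheres and 4.12 in the monolayer.

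Probe sets of 1 gene did not always have the same pattern. The 3 other Cldn1 probe sets had group means between 2.46 and 3.84. They had no call in the comparisons of PT and LungMets with each other, of LungMets with NL, or of PT, LungMets or NL with NMG. There the Cldn1 results rest on 1437932_a_at alone. The 4 Cldn3 probe sets had PT minus NMG differences of 0.24 to 0.87, none called. Both Ocln probe sets gave the same signs in all 4 comparisons. The second F11r probe set, 1436374_x_at, had group means from 5.96 to 6.26 and was called higher in LungMets than in NMG (0.30, limma adjusted p = 0.0239), where the first was not. Its sign was opposite to that of the first in PT against NMG (0.22 against -0.19), in LungMets against NL (0.17 against -0.69) and in PT against NL (0.08 against -1.51, called only for the first), and it was not called in LungMets against PT (0.08), so that the F11r calls there and in PT against NL rest on 1424595_at. Over all probe sets 26.8% were called higher and 19.3% lower for PT against NMG, and 0 and 2 of the 17 member probe sets were. For LungMets against PT 3 were called higher (7.35% of all probe sets, with 7% lower), for LungMets against NL 3 lower (21.5%, with 22.7% higher), and for LungMets against NMG 2 higher and 2 lower (21.9% and 17.1%).

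**Figure D5:**
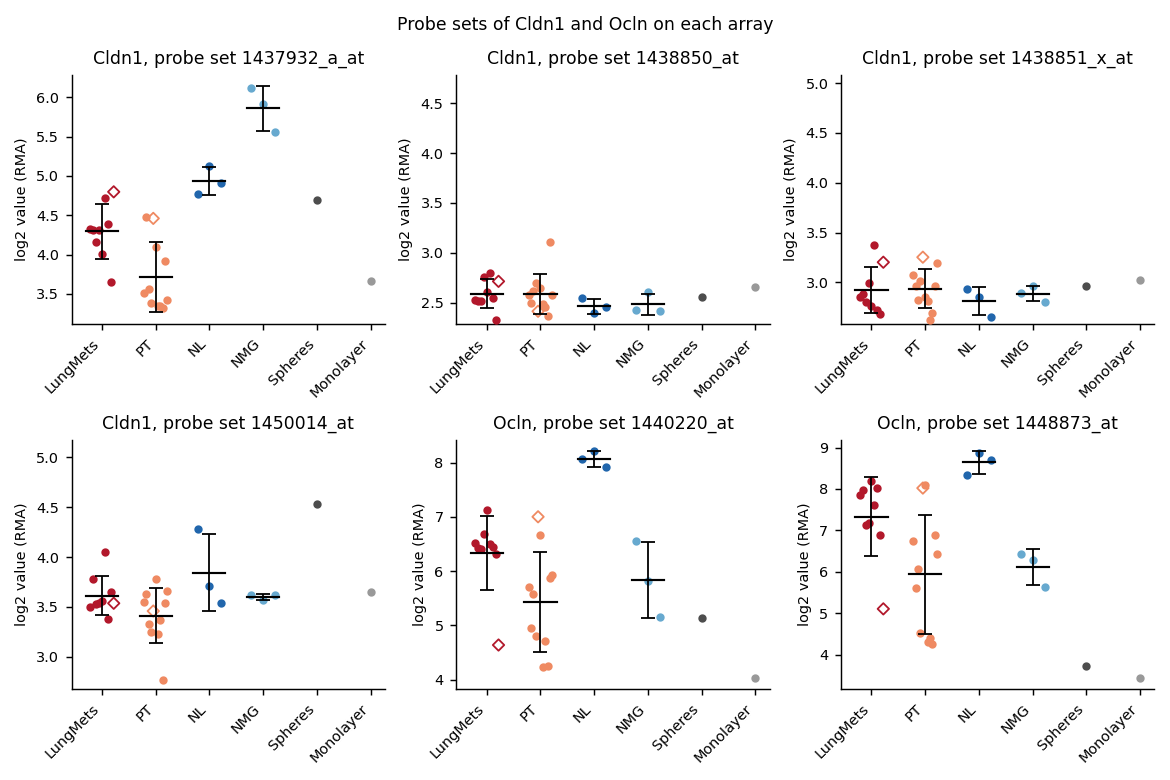
Log2 value (vertical axes) of the 4 Cldn1 and 2 Ocln probe sets on every array, by group (horizontal axes), with mean and SD as black lines and open diamonds for the libraries labelled PT replicate 5 and LungMets replicate 9. Of the Cldn1 probe sets 1437932_a_at alone separates PT from NMG, and both Ocln probe sets have the library labelled LungMets replicate 9 far below the other LungMets arrays.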

How the data were processed

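RMA in Partek 6.6 was the authors' normalization, and the deposited log2 values were taken unchanged, with array medians of 5.00 to 5.18. No detection calls or depths belong to these values, and the number of arrays limits the precision. Of 45101 probe sets, 34958 list 1 gene symbol in the platform annotation, 932 list several and 9211 list none, and only the first kind was used. Gene coordinates and promoter sequences are those of RefSeq (GRCm38.p6), and all 17 member probe sets matched by gene identifier.

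A mean per group was fitted to the 26 tissue arrays with limma 3.58.1 in R 4.3.3, with two-sided tests and Benjamini-Hochberg adjustment over 18194 genes (34958 probe sets in the fit by probe set). The fit was tested on simulated data first. Members and gene lists were chosen with earlier results of these data known. Named genes are all members, the called gene with the largest rise and the largest fall of each list and comparison (2 of each for claudins), the 3 genes most like each member, and markers such as Epcam, Cdh1, Vim and Sftpc beside member results. Cell type lists are mostly given as counts in place of the genes this rule would name. Summed levels are log2 of summed intensities of a list. Figures and promoter searches used Python 3.11.15.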

Additional observations from a re-analysis of the deposited data

Results flagged for a closer look

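Among the 17 member probe sets, tested over the 9 LungMets arrays, 4 had a lowest array far from the others, where chance flags about 1 in 20 groups. All 4 were the library labelled LungMets replicate 9. Its value was 4.64 for Ocln (1440220_at) and 5.10 for Ocln (1448873_at), with gaps of 0.674 and 0.577 of the group's range. It was 8.64 for F11r (1424595_at) and 5.91 for F11r (1436374_x_at), with gaps of 0.547 and 0.509 of the range. The lung epithelium genes of this library averaged 6.36, against a median of 10.56 in LungMets.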

How the results depend on the processing

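The counts of called members kept to within 1.5 times in most settings. For settings other than the main fit, the share of all genes called was not worked out. With genes above the median mean only, which tests 6 members and leaves out Cldn1, Cldn4 and Tjp3, 0 were called for PT against NMG, 1 for LungMets against NL and 1 for LungMets against NMG. With array weights, 6 members were called for LungMets against PT, 5 for LungMets against NL and 5 for LungMets against NMG. With a fold change above 2 required, 0 were called for LungMets against PT and 1 for LungMets against NL. Without the libraries labelled PT replicate 5 and LungMets replicate 9, 5 members and 6 probe sets were called for LungMets against PT, and on the second label date alone 0 were, or 2 without these libraries, a setting chosen after seeing the data.

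Replicate numbers were not taken to pair the samples: same-numbered arrays of LungMets and PT correlated at -0.233 to 0.481 in their deviations, with 7 of 9 pairs over 0.1 and 1 of 9 best with its own number. With a replicate block, 3 members were called for PT against NMG (Cldn7 gained), 5 for LungMets against PT (Ocln, Tjp3 and Marveld2 gained, Cldn1 lost at adjusted p = 0.0546), 7 for LungMets against NL (Cldn4, Cldn7, Ocln, Tjp3 and F11r gained) and 6 for LungMets against NMG (Cldn3, Cldn7 and Ocln gained). The block turned Ocln (0.019) and F11r (0.0046) for PT against NMG and Marveld2 (0.056) for LungMets against NL upward.

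Other turns of direction were in differences that were not called: F11r with the mean of its probe sets (0.014) and Cldn3 with array weights (-0.078) for PT against NMG, Cldn4 on the second label date (-0.037) for LungMets against PT, and Tjp3 with array weights (-0.011) for LungMets against NMG. Leaving out each array in turn gave 2 called members for PT against NMG, 3 to 4 for LungMets against PT, 1 to 3 for LungMets against NL and 3 to 4 for LungMets against NMG. It gave log2 differences of -0.11 to 0.52 for Cldn3 in PT against NMG, -0.10 to 0.29 for Cldn3 and -0.25 to 0.037 for Marveld2 in LungMets against NL, and -0.43 to 0.38 for Tjp3 in LungMets against NMG. Uncalled differences that kept their sign also moved widely, such as Cldn7 (0.27 to 1.17), Tjp3 (-1.33 to -0.52) and Marveld2 (0.02 to 0.61) in PT against NMG and Cldn7 (0.40 to 1.06) in LungMets against PT. Pairs of members whose correlation passed numbered 6 over LungMets arrays and 15 without the library labelled PT replicate 5, against 16 over all PT arrays, and promoter windows with the E-box numbered 10 in the whole window, against 6 upstream. The cause of these changes was not tested, beyond the smaller number of genes tested under the filter. No depth belongs to array values, and Cldn1 in PT and in LungMets lies below the median of every array.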
